A study of Mus musculus with 8 samples.

Results

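The 10 genes described here are the TGFβ ligands Tgfb1, Tgfb2 and Tgfb3, the receptors Tgfbr1 and Tgfbr2, the latent-TGFβ-binding proteins Ltbp1, Ltbp2, Ltbp3 and Ltbp4, and Tgfbi, a matrix protein named for its induction by TGFβ. They were taken by name, through mouse GENCODE annotation, from the 55359 genes of the normalized count table. Total RNA of bone marrow-derived macrophages (BMDMs) was sequenced in 4 groups with n = 2 samples each. Ctrl samples were naïve Mϕ without stimulus, LPS samples were naïve Mϕ stimulated during 6 h with LPS (100 ng/mL) plus IFNγ at 100 U/mL, Eff samples were efferocytic Mϕ that had been kept for 16 h with 5 apoptotic fibroblasts per Mϕ, and LPSEff samples were efferocytic Mϕ that received the same LPS and IFNγ after the apoptotic cells had been washed off. All BMDMs came from adult male and female C57BL/6 mice, were grown with 20 ng/mL M-CSF and 20 ng/mL GM-CSF, and were collected by their CD45. The apoptotic cells were NIH-3T3 CA mouse fibroblasts of a single clone, D10, in which 10 nM dimerizer switches on caspase-8, so that their transcripts cannot be told from those of the Mϕ by species. Per the methods, the dimerizer (10 nM) also stayed in the medium during the co-culture. It is recorded for Eff and LPSEff and not stated for Ctrl and LPS. Exposure of the Mϕ to it is thus not separated from efferocytosis between these groups.

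TGFβ is made as a precursor that is cut by furin and stays bound to its own propeptide, which keeps it latent. Latent-TGFβ-binding proteins tie this complex to fibrillin and other matrix fibres, and integrins or proteases free the active ligand there. Active TGFβ binds TGFBR2, which recruits and phosphorylates TGFBR1, and TGFBR1 then phosphorylates SMAD2 and SMAD3, which enter the nucleus with SMAD4. In Mϕ the pathway is known for restraining inflammatory gene expression and for its part in the clearance of dying cells and in repair.

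Recovered reads ranged from 3481288 (Ctrl replicate 1) to 12020918 (Ctrl replicate 2) per sample, and 3 reads were worth 5.71 and 1.73 normalized counts in these. The 10 macrophage markers summed to between 108856 and 164148 normalized counts in every sample, of which Lyz2 alone held 54327 to 103975. Of these markers 3 rose in LPS vs Ctrl and 4 in LPSEff vs Eff, Cd14 among them, and none was called between efferocytic and naïve Mϕ. The 6 LPS/IFNγ response genes summed to 365 to 520 without and 98266 to 120150 with stimulation. The 6 defining fibroblast markers (Col1a1, Col1a2, Col3a1, Pdgfrb, Thy1, Prrx1) summed to 64.7 and 106 for Ctrl, 340 and 461 for LPS, 944 and 1865 for Eff and 3123 and 2805 for LPSEff. None of them was at 0 in both samples of a group. All 10 genes passed the filter on low values (a mean of at least 10 normalized counts), as did 16309 genes in all.

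Levels per kb of exon allow a rough comparison between the genes. The length is that of all annotated exons of a gene together, which need not be those used in Mϕ. In Ctrl, Tgfbi stood at 1080 ± 172 normalized counts per kb (SD, n = 2), Tgfbr2 at 339 ± 8.14, Tgfbr1 at 204 ± 69.1 and Tgfb1 at 181 ± 40.4. The other six lay far below these, at 12.7 ± 12.8 for Tgfb3, 8.22 ± 3.87 for Ltbp3, 3.25 ± 0.00486 for Ltbp2, 0.891 ± 0.830 for Tgfb2, 0.312 ± 0.0604 for Ltbp1 and 0.241 ± 0.0159 for Ltbp4. In LPSEff, the order near the top had changed. Tgfbi was at 563 ± 199 per kb, followed by Tgfb1 at 324 ± 37.3, Tgfbr1 at 118 ± 68.9, Tgfbr2 at 87.8 ± 20.0, Ltbp3 at 32.7 ± 9.13 and Ltbp2 at 28.6 ± 4.77. The ranges of Tgfbr1 and Tgfbr2 and those of Ltbp3 and Ltbp2 overlapped in LPSEff, so that these neighbours do not differ beyond their spread.

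**Figure D1:**
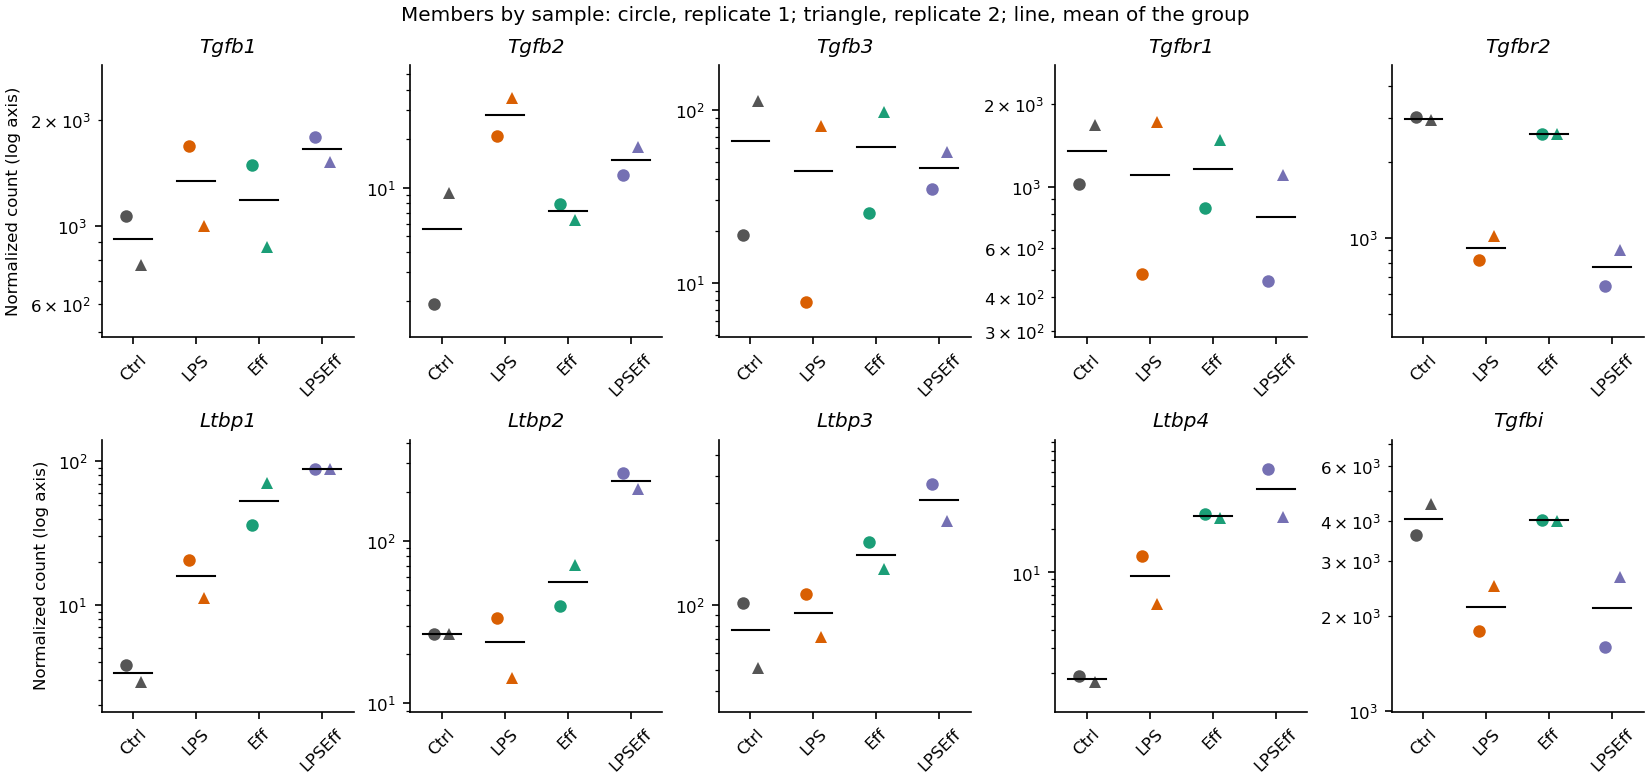
Normalized count (log axis, own range in each panel) of the 10 genes in the 8 samples, with circles for replicate 1, triangles for replicate 2 and a line at the mean of each group. Tgfbr2 and Tgfbi were lower in all 4 stimulated samples than in the 4 unstimulated samples, and Ltbp1, Ltbp2, Ltbp3 and Ltbp4 were higher in Eff than in Ctrl and higher in LPSEff than in LPS.

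Of the ligands, Tgfb1, the isoform that leukocytes are known to make, supplied nearly all of the transcript. Its share of the summed ligand level per kb lay between 86.8% and 98.6% in the 8 samples. It was measured at 1064 and 774 normalized counts for Ctrl, 1685 and 998 for LPS, 1490 and 874 for Eff and 1780 and 1512 for LPSEff. The order of the means was Ctrl, Eff, LPS and LPSEff, and every group overlapped its neighbour in that order. Tgfb1 was not called in any contrast of the main limma fit (log2 fold change 0.51 ± 0.33 (SE), adjusted p = 0.316 in LPS vs Ctrl, and 0.52 ± 0.33, adjusted p = 0.331 in LPSEff vs Eff). The alternative with a replicate block called it in both of these contrasts.

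Tgfb2, a ligand best known from epithelia and mesenchyme, was near the limit of detection in Ctrl, with 1 and 16 reads. Its normalized counts were 1.90 and 9.25 for Ctrl, 20.7 and 35.5 for LPS, 7.89 and 6.35 for Eff and 11.9 and 17.8 for LPSEff. Both LPS samples were above all other samples. Tgfb2 rose in LPS vs Ctrl (log2 fold change 2.37 ± 0.69 (SE), limma adjusted p = 0.0387), and it was not called in LPSEff vs Eff (0.94 ± 0.69, adjusted p = 0.398). The pooled reads of 51 in LPS and 17 in Ctrl gave a ratio of 3.85 with an exact Clopper-Pearson 95% interval of 2.19 to 7.11, which covers counting error only. The call was lost in 11 of 16 alternatives, among them DESeq2 (adjusted p = 0.0572) and the fits without Ctrl replicate 1 (0.178), LPS replicate 1 (0.072), LPS replicate 2 (0.164) or any 1 sample of Eff or LPSEff (0.0568 to 0.0596).

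The sequence before the gene start is shown for each gene that was called in a contrast, since stimulated Mϕ and TGFβ itself act through factors with short known binding motifs. The windows hold the 250 bases before the outermost start in GENCODE, which need not be the start used in Mϕ. Capitals mark matches on either strand to the SMAD box (CAGAC), the AP-1 motif (TGANTCA), the GAS motif of STAT factors (TTCNNNGAA), an IRF motif (GAAANNGAA) or a core of the NF-κB motif (GGNNNTTCC). Among 21770 windows of protein-coding genes, 41.9% hold the SMAD box, 6.46% the AP-1 motif, 7.82% the GAS motif, 7.73% the IRF motif and 15% the NF-κB core. Of the 10 genes, 8 hold the SMAD box, 2 the NF-κB core and 1 each of the other three. The window of Tgfb2, chr1:186438295-186438544 (minus strand, GRCm39), holds 2 SMAD boxes, and an exon of the antisense transcript Gm29491 lies in it.
Tgfb2: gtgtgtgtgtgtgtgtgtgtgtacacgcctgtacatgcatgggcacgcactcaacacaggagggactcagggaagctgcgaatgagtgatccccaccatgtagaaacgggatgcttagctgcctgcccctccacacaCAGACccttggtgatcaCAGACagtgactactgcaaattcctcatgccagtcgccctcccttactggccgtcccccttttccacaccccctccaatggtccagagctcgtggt

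Tgfb3 was measured at 19.0 and 113 normalized counts for Ctrl, 7.76 and 81.2 for LPS, 25.4 and 97.4 for Eff and 34.8 and 57.1 for LPSEff. In normalized counts, the samples of each group differed by more than the means of the groups did, and replicate 1 was the lower one in all 4 groups. No contrast called Tgfb3, and the standard error of its log2 fold changes (1.16) was the largest of the 10 genes. Its exons share 179 bases with those of Ttll5 on the opposite strand.

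Of the receptors, Tgfbr2, which binds the ligand, fell under LPS/IFNγ in naïve and in efferocytic Mϕ. It was measured at 3031 and 2930 normalized counts in Ctrl and 2594 and 2594 in Eff, against 817 and 1018 in LPS and 648 and 896 in LPSEff. Every stimulated sample was below every unstimulated sample. Of all genes tested, 59.3% had groups that did not overlap in LPS vs Ctrl and 59.9% in LPSEff vs Eff, in one direction or the other. The log2 fold change of Tgfbr2 was −1.71 ± 0.21 (SE, limma adjusted p = 0.000976) in LPS vs Ctrl and −1.77 ± 0.21 (adjusted p = 0.000906) in LPSEff vs Eff. The mean of Ctrl was 3.25 times that of LPS and the mean of Eff 3.36 times that of LPSEff. Both calls held in all 17 alternatives, with adjusted p up to 0.012 and 0.00958.

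Tgfbr2 was not called between efferocytic and naïve Mϕ. In Eff vs Ctrl the log2 fold change was −0.20 ± 0.21 (limma adjusted p = 0.999), although both Eff samples were below both Ctrl samples. In LPSEff vs LPS it was −0.26 ± 0.21 (adjusted p = 0.773) and the groups overlapped. The difference between both LPS/IFNγ effects, tested as an interaction, was −0.06 ± 0.30 on the log2 scale (adjusted p = 1). The window of Tgfbr2, chr9:116004801-116005050 (minus strand, GRCm39), holds 2 SMAD boxes and 1 NF-κB core near its upstream end, and an exon of the antisense transcript Gm4668 lies in it.
Tgfbr2: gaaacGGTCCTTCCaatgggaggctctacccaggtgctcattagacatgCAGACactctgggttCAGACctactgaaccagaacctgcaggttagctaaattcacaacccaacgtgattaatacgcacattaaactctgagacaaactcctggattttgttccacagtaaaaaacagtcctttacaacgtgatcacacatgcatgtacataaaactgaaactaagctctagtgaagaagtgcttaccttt

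Tgfbr1, the kinase that phosphorylates the SMADs, was not called in any contrast of the main limma fit. The alternative with a replicate block called it lower in LPSEff vs Eff. Its normalized counts were 1026 and 1674 for Ctrl, 485 and 1720 for LPS, 838 and 1472 for Eff and 456 and 1102 for LPSEff. Replicate 1 was the lower one in all 4 groups, and each group overlapped its neighbour in the order of the means. The largest difference, LPSEff vs Eff, was −0.65 ± 0.63 on the log2 scale (limma adjusted p = 0.539). The level of Tgfbr2 per kb was 1.32 to 2.33 times that of Tgfbr1 in the 4 unstimulated samples and 0.446 to 1.27 times in the 4 stimulated samples.

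Tgfbi, whose product binds integrins and collagens in the matrix, had the highest level per kb of the 10 genes in every group. It was measured at 3618 and 4536 normalized counts in Ctrl and 4025 and 4018 in Eff, against 1800 and 2487 in LPS and 1595 and 2659 in LPSEff. As for Tgfbr2, the stimulated samples were all below the unstimulated ones, where 59.3% (LPS vs Ctrl) and 59.9% (LPSEff vs Eff) of all genes did not overlap. Tgfbi fell in LPS vs Ctrl (log2 fold change −0.94 ± 0.28 (SE), limma adjusted p = 0.0433) and in LPSEff vs Eff (−0.96 ± 0.28, adjusted p = 0.0447). Each call was close to the threshold and was lost in 7 of 17 alternatives, among them means above 0 and only the groups compared. In LPS vs Ctrl it was lost without either Ctrl sample (adjusted p = 0.0915 and 0.203), LPS replicate 1 (0.192) or either Eff sample (0.0674), and in LPSEff vs Eff without either Ctrl sample (0.0643 and 0.0646), either Eff sample (0.158 and 0.155) or LPSEff replicate 1 (0.248). Efferocytic and naïve Mϕ overlapped, with log2 fold changes of −0.01 ± 0.28 (Eff vs Ctrl) and −0.04 ± 0.28 (LPSEff vs LPS).

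The window of Tgfbi, chr13:56757086-56757335 (plus strand, GRCm39), is the only one of the 10 with the IRF motif, and it holds 4 SMAD boxes.
Tgfbi: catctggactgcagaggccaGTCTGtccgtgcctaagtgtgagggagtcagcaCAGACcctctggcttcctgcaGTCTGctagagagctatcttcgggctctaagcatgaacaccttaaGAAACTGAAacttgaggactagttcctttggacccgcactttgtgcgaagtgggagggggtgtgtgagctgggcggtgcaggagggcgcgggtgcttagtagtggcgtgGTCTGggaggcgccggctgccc

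The calls between efferocytic and naïve Mϕ fell on latent-binding protein genes, Ltbp1 without stimulus and Ltbp2 with it. Ltbp1, which anchors latent TGFβ in the matrix, was measured at 3.81 and 2.89 normalized counts for Ctrl, 20.7 and 11.2 for LPS, 35.9 and 70.6 for Eff and 87.9 and 88.8 for LPSEff. No group overlapped another. It rose in Eff vs Ctrl (log2 fold change 3.57 ± 0.47 (SE), limma adjusted p = 0.0392) and in LPS vs Ctrl (1.91 ± 0.47, adjusted p = 0.021). In LPSEff vs LPS it was higher by 2.46 ± 0.47 with an adjusted p of 0.0751, and in LPSEff vs Eff by 0.80 ± 0.47 with an adjusted p of 0.291, neither of which is a call.

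The low counts limit what the fold changes of Ltbp1 can say. Ctrl held 2 and 5 reads of Ltbp1, and the pooled reads gave an Eff to Ctrl ratio of 17.8 (exact 95% interval 8.39 to 45) and an LPS to Ctrl ratio of 4.95 (2.1 to 13.5). The call in Eff vs Ctrl was lost in 8 alternatives and kept in 8. It was lost with edgeR (adjusted p = 0.0647), with only the groups compared, and without any 1 sample of Ctrl, Eff or LPSEff. The call in LPS vs Ctrl was lost in 4 alternatives and kept in 12. Those 4 were only the groups compared and leaving out either Ctrl sample or LPS replicate 1. Over all alternatives the log2 fold changes were 2.74 to 4.08 (Eff vs Ctrl) and 1.29 to 2.37 (LPS vs Ctrl). The window of Ltbp1, chr17:75312269-75312518 (plus strand, GRCm39), holds 1 SMAD box and 1 NF-κB core.
Ltbp1: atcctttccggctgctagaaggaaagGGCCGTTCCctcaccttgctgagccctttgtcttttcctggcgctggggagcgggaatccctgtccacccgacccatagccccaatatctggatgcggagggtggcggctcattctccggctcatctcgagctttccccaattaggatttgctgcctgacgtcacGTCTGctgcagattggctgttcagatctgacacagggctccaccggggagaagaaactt

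Ltbp2, which binds fibrillin but, unlike the other three, is known not to bind latent TGFβ, was highest in efferocytic Mϕ that had been stimulated. Its normalized counts were 26.7 and 26.6 for Ctrl, 33.6 and 14.2 for LPS, 39.4 and 71.3 for Eff and 262 and 207 for LPSEff. Both LPSEff samples were above all others, and LPS and Ctrl overlapped. Ltbp2 rose in LPSEff vs LPS (log2 fold change 3.35 ± 0.45 (SE), limma adjusted p = 0.0257) and in LPSEff vs Eff (2.11 ± 0.45, adjusted p = 0.013), whereas in LPS vs Ctrl its log2 fold change was −0.27 ± 0.45 (adjusted p = 0.728) and in Eff vs Ctrl 0.97 ± 0.45 (adjusted p = 0.858). The mean in LPSEff was 9.8 times that in LPS and 4.24 times that in Eff.

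The interaction of Ltbp2, the LPS/IFNγ effect in efferocytic minus that in naïve Mϕ, was 2.38 ± 0.63 on the log2 scale, with an unadjusted limma p of 0.00533 and an adjusted p of 1, so that this difference did not pass the test over all genes. The call in LPSEff vs LPS was lost in 6 alternatives and kept in 11. It was lost with only the groups compared and without either Ctrl sample, LPS replicate 2 or either LPSEff sample, with log2 fold changes of at least 2.76. That in LPSEff vs Eff was lost without Eff replicate 1 (0.0872) or LPSEff replicate 1 (0.0867). Exons of the lncRNA D030025P21Rik share 764 bases with Ltbp2 on the opposite strand. The window of Ltbp2, chr12:84923307-84923556 (minus strand, GRCm39), holds 2 SMAD boxes, and an exon of D030025P21Rik lies in it.
Ltbp2: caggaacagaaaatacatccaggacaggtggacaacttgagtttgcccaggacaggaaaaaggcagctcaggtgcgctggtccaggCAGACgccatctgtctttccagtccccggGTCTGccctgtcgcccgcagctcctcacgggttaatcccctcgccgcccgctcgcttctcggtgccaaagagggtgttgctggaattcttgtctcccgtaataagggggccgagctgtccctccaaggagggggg

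Ltbp3, which is needed for the secretion and storage of TGFβ1, was the most abundant of the family per kb in every sample, with 41.7% to 73.9% of the summed level. It was measured at 103 and 51.5 normalized counts for Ctrl, 112 and 71.1 for LPS, 196 and 147 for Eff and 367 and 246 for LPSEff. All 4 efferocytic samples were above all 4 naïve samples. Its log2 fold change was 1.21 ± 0.39 in Eff vs Ctrl (limma adjusted p = 0.526) and 1.74 ± 0.39 in LPSEff vs LPS (adjusted p = 0.126), and neither was called in this main fit. The alternative with a replicate block called both.

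Ltbp4, which takes part in elastic fibre assembly and binds latent TGFβ1, was at or below the floor of 3 reads in Ctrl, with 1 and 3 reads. Its normalized counts were 1.90 and 1.73 for Ctrl, 12.9 and 6.09 for LPS, 25.4 and 24.0 for Eff and 52.3 and 24.1 for LPSEff. Both Eff samples were above both LPS samples, and Eff and LPSEff overlapped. The pooled reads gave an Eff to Ctrl ratio of 13.9 (exact 95% interval 5.16 to 52.5). No contrast of the main fit called Ltbp4, with limma adjusted p = 0.0993 in Eff vs Ctrl, 0.0523 in LPS vs Ctrl and 0.26 in LPSEff vs LPS. At least 1 alternative called it in each of these contrasts, among them DESeq2 and the replicate block in Eff vs Ctrl.

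Together the 4 genes summed to 14.8 and 9.24 normalized counts per kb for Ctrl, 19.8 and 11.2 for LPS, 32.5 and 34.1 for Eff and 86.3 and 63.0 for LPSEff. Within this sum, Ltbp2 held 14.8% to 35.2% in the 6 samples of Ctrl, LPS and Eff and 37.1% and 40.1% in LPSEff. The median log2 fold change of the 4 genes was 2.20 without stimulus (Eff vs Ctrl) and 2.17 with it (LPSEff vs LPS), beside medians of −0.01 and −0.00 over all 16309 genes tested. In both contrasts all 4 genes were higher in the 2 efferocytic than in the 2 naïve samples. Of all genes tested, 34.1% and 36.3% had groups that did not overlap, in one direction or the other, and 0.251% and 0.773% were called.

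Part of the fibroblast markers was also higher in the efferocytic samples. Of the 6 defining fibroblast markers, 3 rose in Eff vs Ctrl (Col1a1, Col1a2 and Col3a1) and 4 in LPSEff vs LPS (with Prrx1), while Thy1 and Pdgfrb were not called in these. Pdgfrb was lower in LPSEff (82.3 and 157 normalized counts) than in LPS (246 and 245), with a log2 fold change of −1.10 ± 0.42 (limma adjusted p = 0.411), and that of Thy1 was −0.28 ± 0.44 (adjusted p = 0.999) without and −0.45 ± 0.44 (adjusted p = 0.829) with stimulus. Of the 20 tested genes among 22 fibroblast markers, 6 rose in the first and 8 in the second of these contrasts, and none fell, although the log2 fold changes of Fstl1 in Eff vs Ctrl (−0.37 ± 0.38, adjusted p = 0.999) and Lox in LPSEff vs LPS (−0.85 ± 0.64, adjusted p = 0.751) were below 0. Summed over 22 markers, the levels were 2274 and 1922 for Ctrl, 7575 and 5614 for LPS, 3288 and 6713 for Eff and 12245 and 13337 for LPSEff. In LPS, Fstl1 (mean 3064) and Lox (2478) held most of this sum, beside 1406 and 266 in Ctrl and 1182 and 278 in Eff. Pdgfrb held most of the LPS sum of the defining markers (245 of a mean of 401), beside 13.4 in Ctrl. It was the only defining marker called in LPS vs Ctrl, and it rose (4.11 ± 0.42, limma adjusted p = 0.000418). The means of Ltbp1, Ltbp3, Ltbp4 and the summed defining markers had the same order, from Ctrl over LPS and Eff to LPSEff, whereas the sum over 22 markers was higher in LPS than in Eff (means of 6595 and 5000), and Ltbp2 was lower in LPS than in Ctrl. Among 10 markers of other CD45+ cells, of which 3 were tested, S100a8, a neutrophil and monocyte gene, had that order as well, with 308 and 269.5 normalized counts for Ctrl, 570 and 573 for LPS, 665 and 699 for Eff and 995 and 961 for LPSEff. It rose in Eff vs Ctrl (1.24 ± 0.17, limma adjusted p = 0.0402) and was not called in LPSEff vs LPS (0.77 ± 0.17, adjusted p = 0.114). The other tested markers of that list, Flt3 and Zbtb46, did not have this order, with their lowest means in Eff and their highest in LPS. Their log2 fold changes were −0.719 ± 0.625 and −0.297 ± 0.513 in Eff vs Ctrl. In LPSEff vs LPS they were −1.613 ± 0.625 and −0.813 ± 0.513, and none of these was called. The part of fibroblast RNA and of other CD45+ cells in the latent-binding protein results was not tested. In bulk RNA, a larger number of cells of a type cannot be told apart from more RNA per cell.

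**Figure D2:**
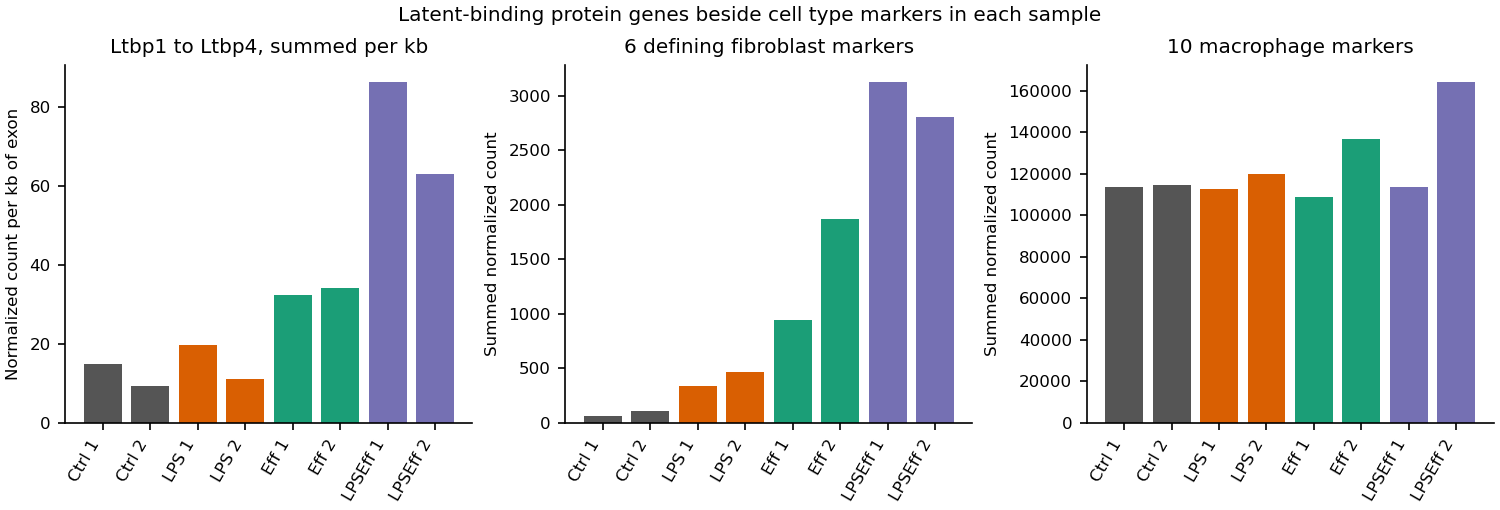
Left, summed level of Ltbp1 to Ltbp4 in normalized counts per kb of exon; middle and right, summed normalized counts of 6 defining fibroblast markers and of 10 macrophage markers, with a bar for each of the 8 samples. The LTBP sum and the fibroblast sum were highest in both LPSEff samples (86.3 and 63.0 per kb, and 3123 and 2805), whereas the macrophage sum lay between 108856 and 164148 in every sample.

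Counted by contrast, LPS/IFNγ called 4 of the 10 genes in naïve Mϕ (Tgfb2 and Ltbp1 up, Tgfbr2 and Tgfbi down), where 24.0% of all genes tested were called. In efferocytic Mϕ it called 3 (Ltbp2 up, Tgfbr2 and Tgfbi down), where 19.7% of all genes were called. Efferocytosis called 1 gene in unstimulated Mϕ (Ltbp1) with a background of 0.251%, and 1 in stimulated Mϕ (Ltbp2) with a background of 0.773%. The interaction called 0 of the 10 genes and 0% of all genes, with 311 of 16309 genes at an unadjusted limma p under 0.05, and edgeR and DESeq2 also called 0 (369 and 244 genes at an unadjusted p under 0.05). The contrasts share samples in pairs, so that a gene's values in them are not independent. The median log2 fold change of the 10 genes was 0.01 in LPS vs Ctrl and 0.52 in LPSEff vs Eff, beside −0.01 and 0.01 over all genes, and 0.45 for efferocytosis alone and 0.55 for efferocytosis under stimulation, beside −0.01 and −0.00.

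**Figure D3:**
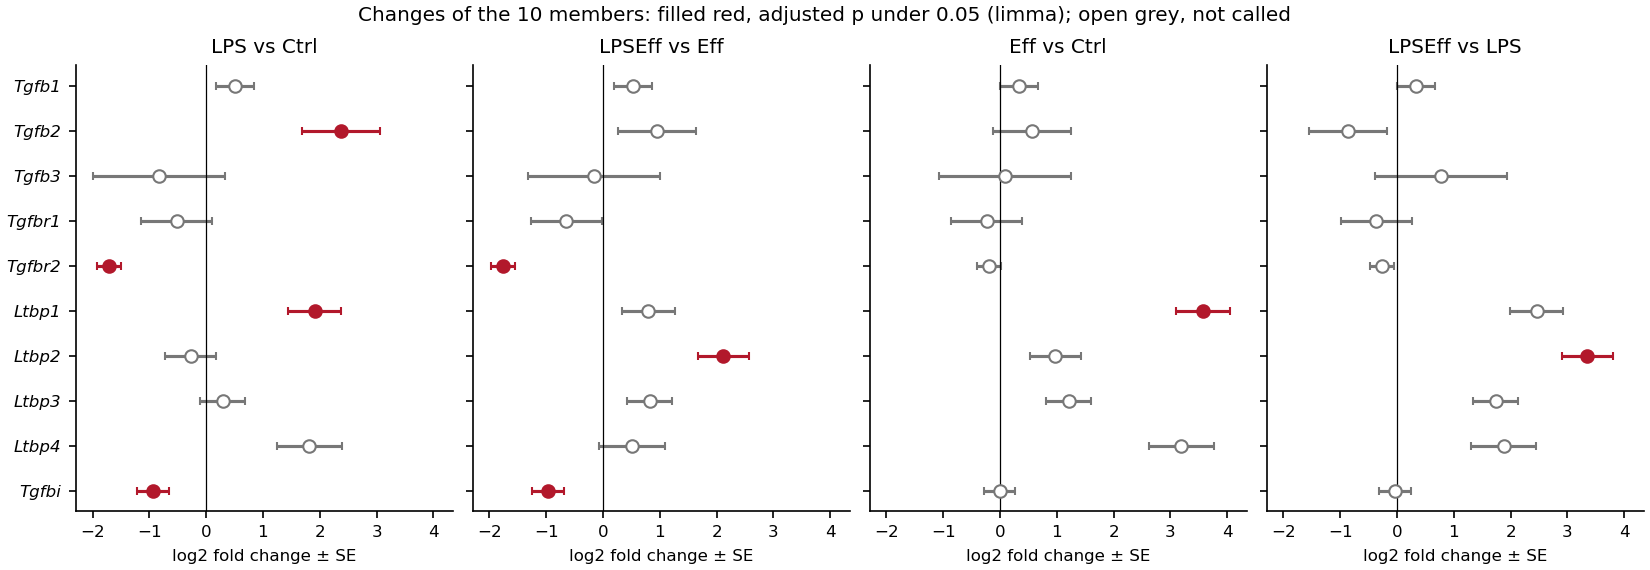
Log2 fold change of the 10 genes with its standard error (limma, on normalized count + 1) in the 4 contrasts, filled red where the adjusted p was under 0.05. Tgfbr2 and Tgfbi were called below 0 in both LPS/IFNγ contrasts, and Ltbp1 and Ltbp2 were the genes called in the efferocytosis contrasts.

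The rest of the pathway was read from a list of 62 further genes, of which 57 were tested. LPS/IFNγ called 26 of them in naïve Mϕ (21 up, 5 down; with samples scaled to equal totals 16 up, 9 down) and 30 in efferocytic Mϕ (24 up, 6 down; with equal totals 15 up, 9 down), whereas efferocytosis called 1 in unstimulated and 2 in stimulated Mϕ. These are 45.6%, 52.6%, 1.75% and 3.51% of the 57 genes, beside the backgrounds of all genes given above. The median log2 fold change of the list was 0.67, 0.71, 0.16 and 0.02 in the same order.

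Of 15 tested genes that activate or store TGFβ, 9 rose and 1 fell in LPS vs Ctrl, and 10 rose and 1 fell in LPSEff vs Eff (66.7% and 73.3% called, beside 24.0% and 19.7% of all genes). Itgb8, whose integrin with αv activates latent TGFβ, went from 28.6 and 17.4 normalized counts in Ctrl to 537 and 1102 in LPS, and from 20.2 and 38.8 in Eff to 1146 and 765 in LPSEff (log2 fold changes 5.05 ± 0.45 and 5.01 ± 0.45, limma adjusted p = 0.000227 and 0.000215). Its partner Itgav rose by 2.12 ± 0.33 and 2.06 ± 0.33 on the log2 scale. The proteases Mmp14 (2.74 ± 0.17 in LPSEff vs Eff), Bmp1 (2.63 ± 0.45 and 2.00 ± 0.45) and Furin (1.54 ± 0.30 and 1.42 ± 0.30) rose in both contrasts, while Itgb5, another partner of Itgav, fell (−1.60 ± 0.20 and −1.16 ± 0.20).

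Thbs1, an activator of latent TGFβ, was measured at 1291 and 939 normalized counts for Ctrl, 20342 and 4334 for LPS, 10665 and 4853 for Eff and 49191 and 31438 for LPSEff, and it rose in both LPS/IFNγ contrasts (3.09 ± 0.67 and 2.45 ± 0.67, limma adjusted p = 0.0125 and 0.0365). The call in LPS vs Ctrl was lost without either Ctrl sample. That in LPSEff vs Eff was lost with edgeR, with equal totals and without any 1 sample of Ctrl, Eff or LPSEff. These calls were kept in 15 and 9 of 17 alternatives. Fbn1, the fibrillin to which LTBPs attach, was the gene of the list called in Eff vs Ctrl. It stood at 15.2 and 8.10 normalized counts for Ctrl, 141 and 146 for LPS, 109.5 and 179 for Eff and 306 and 284 for LPSEff (Eff vs Ctrl 3.54 ± 0.35, adjusted p = 0.0125). It also rose in LPS vs Ctrl (3.57 ± 0.35, adjusted p = 0.000341). Ctrl was thus below the other three groups, and LPS and Eff overlapped. The call in Eff vs Ctrl was lost without Ctrl replicate 2 or Eff replicate 2 and with only the groups compared (limma adjusted p = 0.0772). Fbn1 is also made by fibroblasts.

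Of the 9 co-receptors and related receptors, Eng and Acvr1b rose in LPS vs Ctrl and, with Acvrl1, in LPSEff vs Eff, which is 22.2% and 33.3% of them beside 24.0% and 19.7% of all genes. The call of Acvr1b in LPS vs Ctrl was kept in 10 of 17 alternatives, and that of Acvrl1 in 12. Tgfbr3, the co-receptor betaglycan, was called in LPSEff vs LPS. Its normalized counts were 40.0 and 33.5 for Ctrl, 20.7 and 12.2 for LPS, 64.0 and 109 for Eff and 169 and 143 for LPSEff (LPSEff vs LPS 3.21 ± 0.37, limma adjusted p = 0.0151). Like Ltbp2, Tgfbr3 had its highest values in both LPSEff samples, and both LPS samples were below all others. Its interaction was 2.05 ± 0.53 on the log2 scale with an adjusted p of 1. The protease gene Mmp9 was the other gene called in LPSEff vs LPS (2.49 ± 0.37, adjusted p = 0.0319), with 64.7 and 34.5 normalized counts in LPS and 243 and 299.5 in LPSEff. The call of Tgfbr3 was lost without LPS replicate 2 or either LPSEff sample. That of Mmp9 was lost without those 3 samples, either Ctrl sample or Eff replicate 2, and with only the groups compared (limma adjusted p = 0.0747). These calls were kept in 14 and 10 of 17 alternatives.

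Among 10 signal carriers, Smad4 and Traf6 rose and Tab1 fell in both LPS/IFNγ contrasts (0.92 ± 0.19, 0.96 ± 0.22 and −0.72 ± 0.22 in LPS vs Ctrl). These are 30% of the 10 genes, beside 24.0% and 19.7% of all genes. The call of Smad4 in LPSEff vs Eff was kept in 8 of 17 alternatives. The call of Tab1 in LPS vs Ctrl was kept in 5 of 17 alternatives and lost without any 1 of the 8 samples. Smad2 and Smad3, which carry the signal of TGFBR1, were not called in any contrast. Of 13 inhibitors, Pmepa1, Skil and Tgif1 rose in LPS vs Ctrl (2.84 ± 0.31, 1.99 ± 0.27 and 1.86 ± 0.19), and in LPSEff vs Eff Nedd4l rose with them and Ski fell. These are 23.1% and 38.5% of the 13 genes, beside 24.0% and 19.7% of all genes.

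Of 10 known TGFβ targets tested, 8 were called in each LPS/IFNγ contrast, 5 up and 3 down, which is 80% of them beside 24.0% and 19.7% of all genes. In the efferocytosis contrasts 0 of the 10 were called, where 0.251% and 0.773% of all genes were. Junb, Cdkn2b, Cdkn1a and Bhlhe40 were among those that rose in both. Id1, an inhibitor of differentiation factors that answers to BMP and TGFβ, fell from 1344 and 1404 in Ctrl to 162 and 102 in LPS and from 2086 and 1380 in Eff to 127 and 133 in LPSEff, and Id3 and Klf10 fell with it. Targets of the list thus changed in both directions within the same samples, and many of them are also controlled by other signals.

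**Figure D4:**
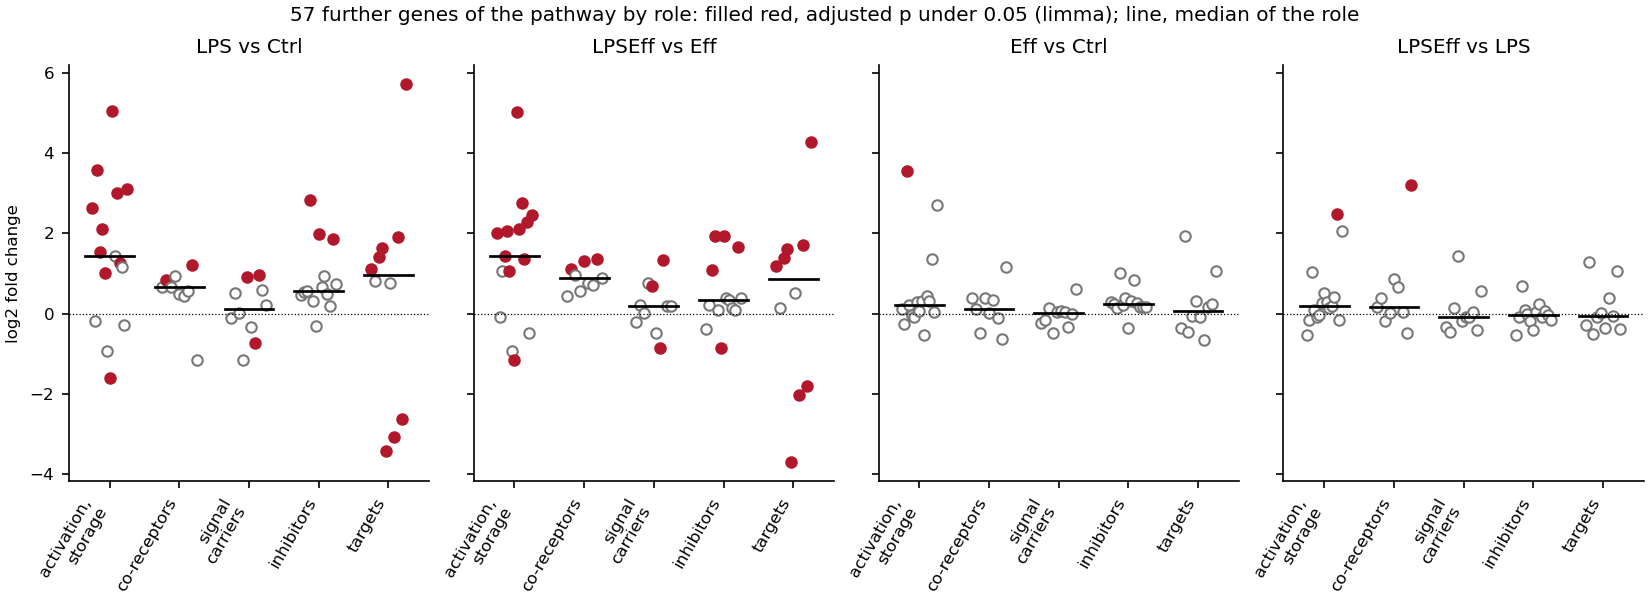
Log2 fold change (limma) of the 57 tested pathway genes in the 4 contrasts, grouped by role, with a line at the median of each role and filled red points where the adjusted p was under 0.05. Called genes were frequent in both LPS/IFNγ contrasts (26 and 30) and were 1 (Fbn1) and 2 (Mmp9 and Tgfbr3) in the efferocytosis contrasts.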

How the data were processed

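Reads were single-end, from rRNA-depleted total RNA. Per the methods, adapters were cut with cutadapt, rRNA was filtered with bowtie2, and STAR (mm39), htseq-count (default mode) and DESeq2 followed. Versions and annotation release are not given in the sources used here. The signal values deposited by the authors are read counts over a size factor of each sample (normalized counts). All of them (100%) were whole multiples of 1 step per sample, within 0.05 reads, which gave back the reads. Floors (3 reads) and intervals cover counting error only.

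Log2(normalized count + 1) was tested with limma-trend (limma 3.58.1 in R 4.3.3) over 16309 genes with a mean of at least 10, in 1 fit of 4 group means (4 residual degrees of freedom), with Benjamini-Hochberg adjustment over all genes and calls at an adjusted p under 0.05. With 2 against 2 samples the smallest exact permutation p is 0.333. Neither the labels nor the methods of the sequencing say whether the 2 samples of a group came from separate cultures or animals, and p-values then measure only the spread between these samples. The test was also run on simulated counts. These had the same spread setting for every gene and no difference between replicate numbers, so that the run does not show how the test does on these samples. Differentiation took 6 days by the methods and 7 by the labels. Positions and exon lengths are from GENCODE mouse release 39 (GRCm39, the same build), which named 54749 identifiers.

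The genes and lists were chosen with earlier results of these data known. Named were all 10 genes, called pathway genes of each role and contrast mainly by size of change, and up to 3 genes most like each of the 10 by Pearson's r. Itgav, Furin, Itgb5, Cdkn2b, Cdkn1a and Bhlhe40 were named although outside the 5 largest changes of their role, and some larger changes were not named. Smad2 and Smad3, which were not called, were named after their values were seen. Alternatives were pseudocounts of 0.5 and 5, means above 0 or of at least 50, equal totals, TMM with edgeR 4.0.16, DESeq2 1.42.0 (both on recovered reads), a replicate block, only the groups compared, and leaving out each sample. Some results on single genes are not reported here.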

Additional observations from a re-analysis of the deposited data

How the results depend on the processing

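Among the called changes of the 10 genes, the 2 of Tgfbr2 kept their call in all alternatives, and none turned direction in any. Counts below are given first for LPS/IFNγ in naïve and efferocytic Mϕ and then for efferocytosis without and with stimulus, for the 10 genes (4, 3, 1 and 1 called) and for the 57 pathway genes (26, 30, 1 and 2 called). With all genes of a mean above 0 the 10 genes gave 2, 2, 1 and 2 calls, with a mean of at least 50 (7 of them tested) 2, 3, 0 and 1, with only the groups compared 1, 2, 0 and 0, with edgeR 4, 3, 0 and 1, and with DESeq2 3, 3, 2 and 3, where the added calls in the last contrasts were Ltbp4 in Eff vs Ctrl and Ltbp1 and Ltbp3 in LPSEff vs LPS. Only the groups compared left 0 and 1 pathway calls for efferocytosis without and with stimulus. Leaving out 1 sample gave 1 to 4, 1 to 3, 0 to 1 and 0 to 1 calls among the 10 genes and 18 to 26, 15 to 31, 0 to 1 and 0 to 2 in the pathway list. The sample left alone in its group was then taken to vary like the others.

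The replicate block raised the calls to 6, 6, 3 and 4 of the 10 genes, 37, 36, 4 and 5 of the pathway list and 6717, 6033, 436 and 1137 of all genes. With it, among others, Tgfb1 was called in both LPS/IFNγ contrasts (adjusted p = 0.0229 and 0.0233), Ltbp3 without and with stimulus between efferocytic and naïve Mϕ (0.00976 and 0.00068), Ltbp1 under stimulus (0.00942), and Ltbp4 in Eff vs Ctrl (0.00752). Tgfbr1 was called lower in LPSEff vs Eff. The differences between replicates 1 and 2 correlated between groups by r = 0.404 to 0.595 over genes, but the labels do not say that a number marks a shared preparation, and each comparison has 2 pairs only.

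Changes that were not called could turn direction on the log2 scale. On leaving out 1 sample, the ranges were Tgfb1 −0.05 to 0.71 for Eff vs Ctrl, −0.04 to 0.72 for LPSEff vs LPS, Tgfb2 −0.34 to 1.48 for Eff vs Ctrl, Tgfb3 −2.45 to 0.78 for LPS vs Ctrl, −1.11 to 0.79 for LPSEff vs Eff, −1.17 to 1.35 for Eff vs Ctrl, −0.85 to 2.38 for LPSEff vs LPS. They were Tgfbr1 −1.43 to 0.39 for LPS vs Ctrl, −0.65 to 0.17 for Eff vs Ctrl, −1.28 to 0.55 for LPSEff vs LPS, Ltbp2 −0.86 to 0.33 for LPS vs Ctrl, Ltbp3 −0.20 to 0.79 for LPS vs Ctrl, Ltbp4 −0.03 to 1.05 for LPSEff vs Eff, Tgfbi −0.17 to 0.15 for Eff vs Ctrl, −0.41 to 0.33 for LPSEff vs LPS. Tgfb3 in Eff vs Ctrl was −0.19 with edgeR and −0.12 with DESeq2. Equal totals brought the median of all genes to −0.40 and −0.44 on the log2 scale in the LPS/IFNγ contrasts (from −0.01 and 0.01), and gave −0.10 for Ltbp3 in LPS vs Ctrl and 0.00 for Tgfbi in Eff vs Ctrl.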

Other observations

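Replicate 1 was lower than replicate 2 in all 4 groups for Tgfb3 and Tgfbr1, and higher in all 4 for Tgfb1, Ltbp3 and Ltbp4. For Tgfbr1 the log2 difference of replicate 1 from replicate 2 was −0.70 in Ctrl, −1.82 in LPS, −0.81 in Eff and −1.27 in LPSEff. For Tgfb3 it was −2.51, −3.23, −1.90 and −0.70 in the same order. Over all 16309 genes tested, 29.1% were lower and 14.7% higher in replicate 1 in every group, so that such a pattern is common in these samples, and what a replicate number stands for is not given in the sources used here.

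Several pairs of the 10 genes moved alike over the 8 samples, which share groups and are given as a description. On the log2 scale, Pearson's r was 0.968 for Ltbp1 and Ltbp4, 0.945 for Tgfbr2 and Tgfbi, 0.875 for Ltbp2 and Ltbp3, and −0.882 for Tgfb1 and Tgfbr1. Among all genes tested, the genes most like Tgfbr2 were Zdhhc3 (0.999), Cnr2 (0.996) and Vsir (0.996), and those most like Tgfbi were H2ac8 (0.994), Sfxn1 (0.993) and Nop14 (0.991). The genes most like Ltbp1 were Thbs2 (0.996), Ctla2a (0.991) and Msln (0.987), those most like Ltbp2 were Hsph1 (0.985), Pcdha4b (0.970) and Snhg8 (0.970), and those most like Ltbp3 were Gm20488 (0.985), Notch4 (0.979) and Gm5964 (0.972). After Ltbp1, Ltbp4 was most like Fam110c (0.967) and Farp1 (0.965). For the ligands and Tgfbr1 the highest r were 0.986 (Tgfb1 with Cygb), 0.996 (Tgfb2 with Gm10461), 0.991 (Tgfb3 with Zfp984) and 0.993 (Tgfbr1 with Zfp760).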
